A study of Mus musculus with 6 samples.

Results

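MicroRNA genes were followed in testicular germ cells that had lost *Mgat1*, which encodes GlcNAcT-I, the enzyme needed to begin complex N-glycans. A gene was included when its symbol on the array began with Mirlet7, or was Mir followed by a number under 400 with or without a suffix, and when it had at least 1 probe set carrying a single symbol. This gave 218 of the 23152 genes on the array. One of them, *Mir17hg*, is the host transcript of a microRNA cluster and meets the same naming rule. Germ cells came from 22 dpp (days post-partum) males on the FVB background, 3 *Mgat1* cKO mice (*Mgat1*[F/F]:Stra8-iCre) and 3 control mice (*Mgat1*[F/F], without Cre), with 1 Affymetrix mouse gene array per mouse. Both groups carry floxed *Mgat1* alleles, and the Stra8-iCre transgene deletes them in spermatogonia, so cells of later stages descend from deleted spermatogonia while somatic cells of the testis keep the gene. The cells were freed by enzymes and filtering without a sort, and litter could not be set against genotype, since no source used here gives it. The study's mouse numbers form a separate consecutive run for each genotype. Whether these runs stand for litters or collection groups is not stated, so such a difference cannot be told apart from genotype.

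A microRNA is cut from a long primary transcript, which may be a gene of its own or the intron of a host gene. The nuclease Drosha and its partner Dgcr8 release a hairpin in the nucleus, Dicer1 trims the hairpin to a short duplex in the cytoplasm, and 1 strand is loaded into an Argonaute protein, where bases 2 to 8, the seed, pair with target mRNAs. Germ cells need this machinery to complete meiosis and to form spermatids. The array reads labelled cDNA made from total RNA that had passed silica columns, which keep long RNA better than RNA of microRNA size. Each signal therefore stands for RNA at the locus of the hairpin, primary transcript included, and mature microRNAs were not measured.

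The sequences of the members on which the results turn are given first. They are RefSeq sequences (assembly GRCm38.p6), written 5′ to 3′ with the seed in capitals. Hairpin sequences were found for 191 members and mature sequences for 198. The miR-15, miR-16 and miR-195 family is shown because its loci on chromosomes 14, 3 and 11 all had lower signal in *Mgat1* cKO germ cells and share the seed AGCAGCA.
miR-15a-5p of Mir15a: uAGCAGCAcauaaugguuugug
miR-15b-5p of Mir15b: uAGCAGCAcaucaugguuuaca
miR-16-5p of Mir16-1 and Mir16-2: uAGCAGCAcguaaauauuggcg
miR-195a-5p of Mir195: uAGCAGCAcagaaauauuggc

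The following are shown because they were among the members with the largest changes outside that family, the first 3 lower and the last 3 higher in *Mgat1* cKO germ cells. None of these 6 has the seed of another in the set.
miR-186-5p of Mir186: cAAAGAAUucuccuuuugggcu
miR-19a-3p of Mir19a: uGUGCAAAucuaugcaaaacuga
miR-28b of Mir28b: aGGAGCUCacaaucuauuuag
miR-96-5p of Mir96: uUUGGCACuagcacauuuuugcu
miR-194-5p of Mir194-1: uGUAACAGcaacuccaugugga
miR-130b-3p of Mir130b: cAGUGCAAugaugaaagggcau

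As the signal stands for RNA at the hairpin locus, the hairpins of Mir16-1 and Mir16-2 are given as well, with mature arms in capitals. Mir16-1 lies at chr14:61631880-61631972 (minus strand) and Mir16-2 at chr3:69009902-69009996 (plus strand). The 5′ arm is the same in both, while the hairpins as a whole were 70.5% identical, so the loci differ outside that arm. Where the probes lie within each locus was not examined. Whether RNA of one locus of the family adds to the signal of another was therefore not tested. The hairpin of Mir186 (chr3:157544279-157544349, plus strand), the member with the largest change, follows those of Mir16-1 and Mir16-2.
Mir16-1 hairpin: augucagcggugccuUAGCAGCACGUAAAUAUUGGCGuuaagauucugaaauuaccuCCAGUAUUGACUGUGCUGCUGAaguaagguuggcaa
Mir16-2 hairpin: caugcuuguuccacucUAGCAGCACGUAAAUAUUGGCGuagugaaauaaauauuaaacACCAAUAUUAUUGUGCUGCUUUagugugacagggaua
Mir186 hairpin: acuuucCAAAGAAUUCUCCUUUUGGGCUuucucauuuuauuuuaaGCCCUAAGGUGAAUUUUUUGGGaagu

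Values are log2 RMA signals (background corrected, brought to one distribution and summarized by the authors), so a difference of 1 is a 2-fold difference. Over all genes the correlation between arrays was 0.992 to 0.994 within cKO, 0.992 to 0.993 within control and 0.95 to 0.97 between them. *Mgat1* itself averaged 6.79 ± 0.093 in cKO and 6.91 ± 0.090 in control mice (SD, n = 3 each), a log2 difference of -0.13 that did not pass the test (adjusted p = 0.356). This value averages all probe sets of the gene, and which of them lie in the deleted part was not examined, so it does not check the labels. All 12 spermatid markers were higher in the cKO (median log2 fold change 2.25), 9 of 10 spermatocyte markers were lower (median -0.60), and 7 of 10 markers of stromal and peritubular cells (median -0.76), 5 of 10 markers of macrophages and immune cells and 4 of 10 Sertoli cell markers were lower. One macrophage marker, *Aif1*, was raised (1.80), and of the other lists 3 of 10 spermatogonial markers were lowered, 1 of 7 Leydig cell markers was raised and 1 lowered, and 2 of 10 endothelial markers were raised and 1 lowered. These shifts in cell markers accompany every result below, and their part in it was not tested. In bulk RNA, fewer cells of a type and less RNA per cell cannot be told apart.

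Microarray signal fell at more microRNA genes than it rose. With limma over all 23152 genes and Benjamini-Hochberg adjustment, 8 of 218 microRNA genes were raised and 25 were lowered in *Mgat1* cKO germ cells at an adjusted p under 0.05. These are 3.67% and 11.5% of the members, together 15.1%, whereas 13.3% of all genes were raised and 18.4% lowered, together 31.7%. Genes with a single probe set on the array, as 209 of the members are, were raised in 7.33% and lowered in 10.7% of cases, together 18.1%. Of the 282 other microRNA genes 3.9% were raised and 12.4% lowered, together 16.3%. The total share called among the members was thus close to both of these groups. The share raised was close to that of the other microRNA genes. It was lower than among genes with a single probe set, a group that includes the 209 members. The cKO and control values did not overlap for 52 microRNA genes (23.9%, against 46.7% of all genes). The median log2 fold change was -0.07 over the microRNA genes and -0.02 over all genes.

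Rises at microRNA genes were small, while falls were not smaller than those over all genes. The median log2 fold change of raised genes was 0.41 among the members and 0.63 over all genes. For lowered genes it was -0.57 among the members and -0.475 over all genes. Of the 218 members only Mir186 and Mir19a differed by 2-fold or more, both lower. Of all 23152 genes 968 were raised and 113 lowered by that much. The median signal of microRNA genes was 4.46, against 6.81 for all genes, and 131 of the 218 had a mean below 5, a range in which RMA compresses differences. Calls were more frequent at brighter loci, with 5 raised and 14 lowered among the brightest 73 members and 1 raised and 6 lowered among the dimmest 73. Of the raised genes, Mir96, Mir194-1 and Mir130b kept the call when any single array was left out, and the other 5 did not. The count of raised genes was 4 without cKO replicate 1, 4 without cKO replicate 2, 3 without control replicate 2 and 5 without control replicate 3. Of the lowered genes 15 kept the call and 10 lost it without at least 1 array.

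**Figure D1:**
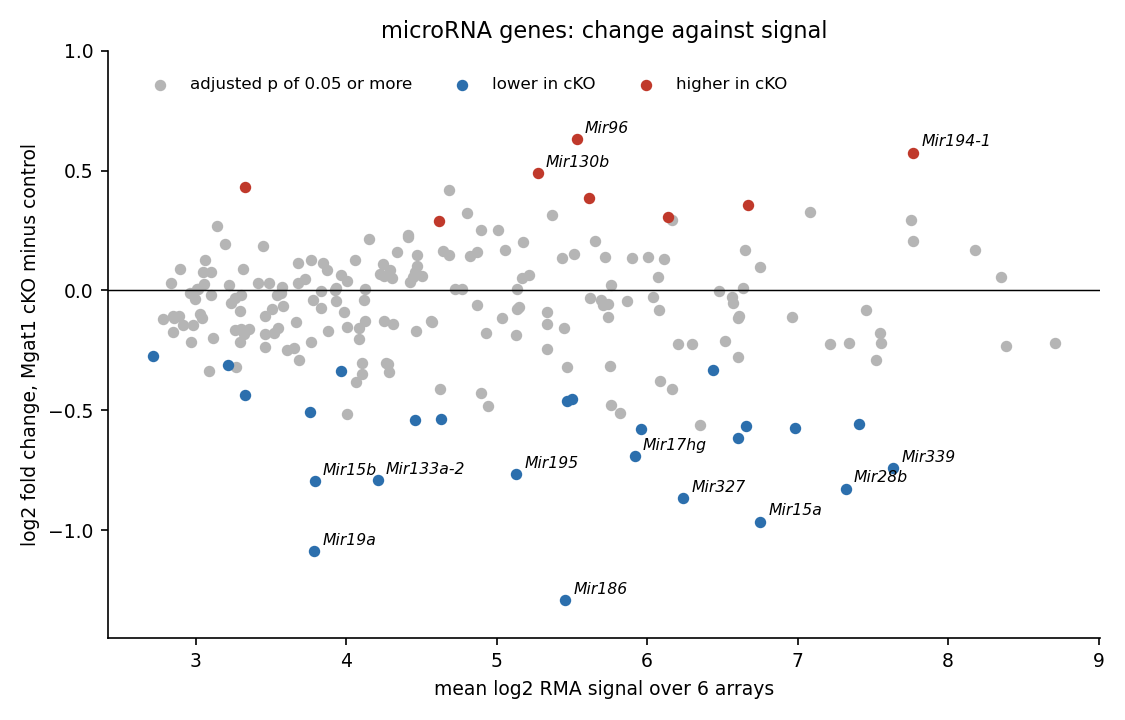
Log2 fold change (Mgat1 cKO minus control, vertical axis) of the 218 microRNA genes against their mean log2 RMA signal over 6 arrays (horizontal axis). Red points are the 8 raised genes, blue points the 25 lowered genes, and grey points did not pass an adjusted p of 0.05; the largest falls, Mir186 at -1.29 and Mir19a at -1.09, lie well below the largest rise, Mir96 at 0.63.

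All 5 genes of the miR-15, miR-16 and miR-195 family were lower in *Mgat1* cKO germ cells, with no overlap between groups at any of them. Its microRNAs are known to restrain cyclins and other cell cycle genes and to lower Bcl2, an inhibitor of apoptosis. Mir15a had 6.30, 6.35 and 6.15 in cKO, against 7.29, 7.11 and 7.30 in control, a log2 fold change of -0.97 ± 0.10 (SE, n = 3 per group; limma adjusted p = 9.84e-05). Mir16-1, its neighbour on chromosome 14, had 6.29, 6.35 and 6.17 in cKO, against 6.40, 6.68 and 6.73 in control (-0.33, adjusted p = 0.0493). The call of Mir16-1 was the weakest of the 5 and was lost without any one of the arrays other than control replicate 1 (adjusted p from 0.0715 to 0.148).

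The second locus, on chromosome 3, showed the same direction. Mir15b had 3.32, 3.54 and 3.32 in cKO, against 3.98, 4.42 and 4.17 in control (-0.80, adjusted p = 0.00159). Mir16-2 had 5.51, 5.71 and 5.78 in cKO, against 6.40, 6.16 and 6.18 in control (-0.58, adjusted p = 0.00395). Mir195 on chromosome 11 had nearly equal values of 4.75, 4.78 and 4.71 in cKO, against 5.23, 5.81 and 5.51 in control (-0.77, adjusted p = 0.00298). The mean of the 5 genes was 5.22 to 5.35 on the cKO arrays and 5.86 to 6.03 on the control arrays, with a median log2 fold change of -0.77 over the 5. This family was singled out after its values were seen, and with the one-way test of the study's methods, adjusted over all genes, 3 of the 5 passed.

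The genes around both clusters were lower too. Mir15a and Mir16-1 lie in *Dleu2*, a long noncoding RNA gene, which had 6.01, 6.11 and 5.89 in cKO, against 6.38, 6.69 and 6.44 in control (-0.50, adjusted p = 0.00831). Mir15b and Mir16-2 lie within *Smc4*, which encodes a condensin subunit that compacts chromosomes. The strand of *Smc4* relative to them was not determined here. *Smc4* had 10.99, 11.16 and 11.19 in cKO, against 11.50, 11.51 and 11.54 in control (-0.41, adjusted p = 0.00943). The fall was larger at Mir15a, Mir15b and Mir16-2 than at the gene around each, and smaller at Mir16-1 than at *Dleu2*, although the difference between gene and host was not tested. On its brightest probe set *Dleu2* had -0.12 (adjusted p = 0.636) and *Smc4* -0.21 (adjusted p = 0.179).

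The miR-17-92 cluster on chromosome 14 is a polycistron that promotes proliferation and is expressed in spermatogonia. Its genes did not move alike. The host transcript *Mir17hg* had 5.56, 5.68 and 5.47 in cKO, against 6.30, 6.44 and 6.05 in control (-0.69, adjusted p = 0.00228). Mir19a fell to 3.40, 3.14 and 3.18 in cKO, against 4.15, 4.50 and 4.34 in control (-1.09 ± 0.12, SE; adjusted p = 0.000136). Its mean signal of 3.785 put Mir19a among the dimmest 73 members. Mir17 had 4.27, 4.20 and 4.09 in cKO, against 4.97, 4.56 and 4.65 in control (-0.54, adjusted p = 0.00839).

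Other members of the same polycistron did not pass the test. Mir18 (the older name of Mir18a) had -0.32 (adjusted p = 0.178), Mir19b-1 had -0.13 (adjusted p = 0.521) and Mir20a had 0.01, with a 95% interval from -0.25 to 0.26. Mir20a had 5.04, 5.20 and 5.17 in cKO, against 5.32, 4.96 and 5.11 in control, so its groups overlapped. Mir19a and Mir19b-1 have the same seed, GUGCAAA, and their hairpins were 70.1% identical. The log2 signal of Mir19a minus that of Mir19b-1 on the same array was -1.20, -1.30 and -1.26 in cKO, against -0.76, 0.13 and -0.26 in control. As Mir19a was picked for its fall in these data, this contrast is given without a test. The paralogous cluster on the X chromosome had no member that passed, and Mir106a, its largest change, had -0.52 (adjusted p = 0.0664). Mir106a passed without cKO replicate 3 (adjusted p = 0.0417) and without control replicate 1 (adjusted p = 0.0365).

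**Figure D2:**
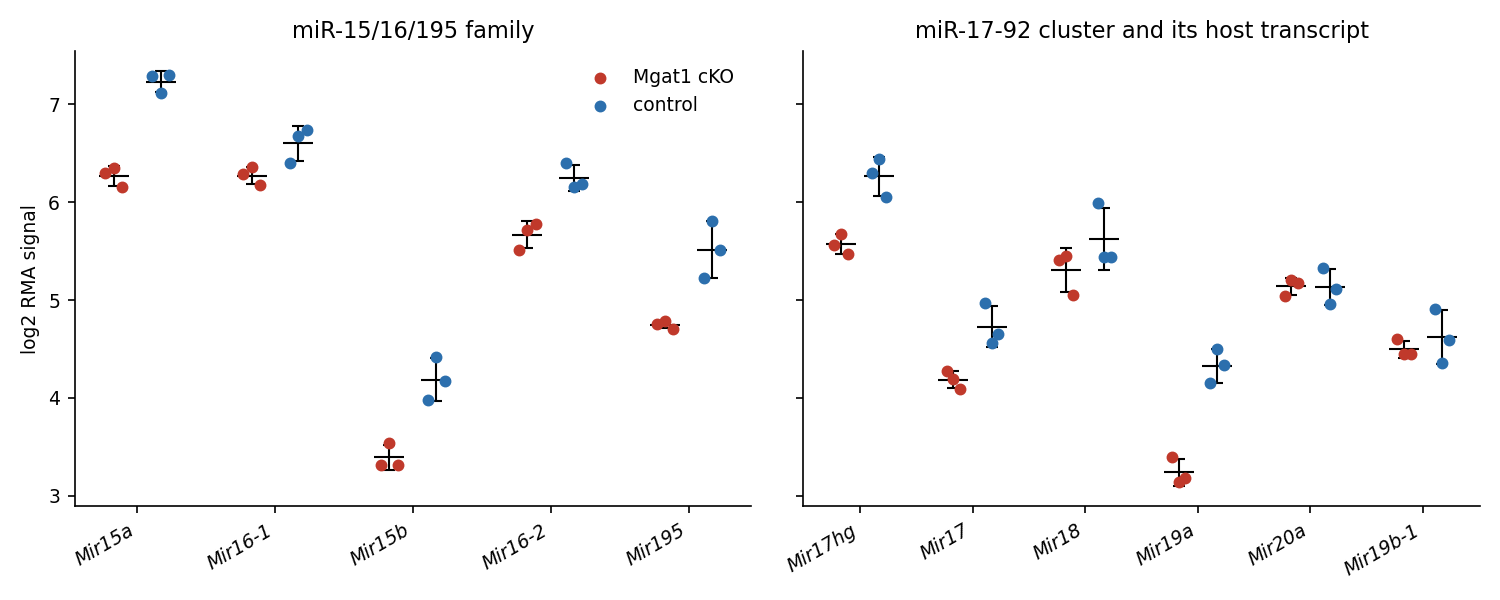
Log2 RMA signal (vertical axis) of the 5 genes of the miR-15 family and of 6 genes of the miR-17-92 locus, with 3 Mgat1 cKO arrays (red, left) and 3 control arrays (blue, right) for each; bars show mean and SD. Red points lie below blue points for all 5 family members and for Mir17hg, Mir17 and Mir19a, while they overlap for Mir20a and Mir19b-1.

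Mir186 had the largest difference of all members. It had 5.17, 4.77 and 4.49 in cKO, against 6.03, 6.08 and 6.18 in control, a log2 fold change of -1.29 with a 95% interval from -1.64 to -0.94 (adjusted p = 0.000273). Its host *Zranb2*, an RNA-binding splicing factor, had 8.74, 8.70 and 8.85 in cKO, against 8.92, 8.97 and 9.03 in control (-0.21, adjusted p = 0.106). The interval of *Zranb2*, -0.41 to -0.01, did not reach that of Mir186. With the median of its probe sets *Zranb2* had 0.01.

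The other large falls were spread over unrelated loci. Mir327 had 6.01, 5.70 and 5.71 in cKO, against 6.69, 6.67 and 6.65 in control (-0.87, adjusted p = 0.000331), and Mir28b had 6.80, 6.88 and 7.04 in cKO, against 7.75, 7.78 and 7.66 in control (-0.83, adjusted p = 0.000252). Both groups were tight and well apart for these 2 genes. Mir339 had 7.40, 7.30 and 7.10 in cKO, against 7.46, 8.35 and 8.21 in control (-0.74, adjusted p = 0.0229), where control replicate 1 lay close to the cKO values. Its call was lost without cKO replicate 2 or 3 or control replicate 2 or 3 (adjusted p from 0.0505 to 0.0845). The gene that holds it, *3110082I17Rik*, had -0.03 (adjusted p = 0.847), a value that changed sign with the scaling of the arrays (0.02 after centring each on its median).

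The 8 raised genes were led by Mir96. Mir96 had 5.75, 6.02 and 5.77 in cKO, against 5.37, 5.04 and 5.24 in control (0.63 ± 0.12, SE; adjusted p = 0.00369). It belongs to a cluster with Mir183 and Mir182 that is known from sensory cells and is also expressed in male germ cells. The neighbours had log2 fold changes of 0.01 (Mir183, 95% interval -0.20 to 0.23) and 0.06 (Mir182, -0.14 to 0.26). Mir96 minus Mir182 on the same array was 1.26, 1.54 and 1.32 in cKO, against 1.02, 0.53 and 0.83 in control. As Mir96 was picked for its rise in these data, this contrast is given without a test.

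Mir194-1 was the brightest raised gene, with 8.06, 8.01 and 8.11 in cKO, against 7.58, 7.46 and 7.41 in control (0.57, adjusted p = 0.0015). It lies on the strand opposite to *Iars2*, the mitochondrial isoleucyl-tRNA synthetase, which was lowered (-0.53, adjusted p = 0.0109). Mir181b-2 had 5.65, 5.83 and 5.94 in cKO, against 5.30, 5.36 and 5.60 in control (0.39, adjusted p = 0.0307). Its call was lost without cKO replicate 2 or 3 or control replicate 1 or 2 (adjusted p from 0.0819 to 0.0983). The remaining raised genes, Mir133a-1, Mir124a-2, Mir7b and Mir196a-1, had log2 fold changes from 0.29 to 0.43 and each lost the call without 4 or 5 of the 6 arrays in turn (adjusted p from 0.0504 to 0.13).

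Mir130b and Mir301b, neighbours on chromosome 16 inside *2610318N02Rik* and on its strand, moved in opposite directions. *2610318N02Rik* had 10.20, 9.96 and 9.90 in cKO, against 8.71, 8.30 and 8.68 in control (1.46, adjusted p = 4.28e-05). Mir130b had 5.39, 5.42 and 5.74 in cKO, against 4.91, 5.10 and 5.07 in control (0.49, adjusted p = 0.0118). Mir301b had 6.32, 6.32 and 6.25 in cKO, against 6.82, 7.09 and 6.83 in control (-0.61, adjusted p = 0.00194). Mir130b minus Mir301b on the same array was -0.92, -0.90 and -0.51 in cKO, against -1.91, -1.98 and -1.76 in control, a difference of 1.10 between the groups. The pair was chosen for this contrast, which is given without a test.

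Over all members inside another gene on the same strand, the change of the microRNA gene showed little relation to that of the host. There were 76 such pairs of 75 members and 60 hosts. Across the pairs the log2 fold changes had a Pearson correlation of 0.07 and a Spearman correlation of 0.11. In the 40 pairs whose member lay above the median signal of members, these were 0.15 and 0.21. The median signal was 4.55 for the members of all pairs, in the range that RMA compresses, and 7.31 for the hosts. The part of weak signal in the correlations was not tested. They are given as a description, since all points come from the same 6 arrays and several hosts hold more than 1 member. Both were lowered in 3 pairs (Mir15a and Mir16-1 with *Dleu2*, and Mir188 with *Clcn5*, a chloride transporter gene), and both were raised in 1 (Mir130b with *2610318N02Rik*). The calls were opposite in 2 pairs, Mir301b and Mir139. In 19 pairs the host passed the test and the microRNA gene did not, and in 4 pairs only the microRNA gene passed. A further 19 pairs, Mir15b and Mir16-2 with *Smc4* among them, were left out of this tally because their relative strand was not determined here, and in 2 of these, the *Smc4* pairs, both were lowered.

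Single pairs show the range. Mir139 had 6.93, 6.55 and 6.61 in cKO, against 7.38, 7.26 and 7.18 in control (-0.57, adjusted p = 0.00611), while *Pde2a*, a phosphodiesterase gene around it, was raised (0.35, adjusted p = 0.0357). Mir103-1 lies in *Pank3*, an enzyme of coenzyme A synthesis, which had 7.80, 7.61 and 7.67 in cKO, against 8.57, 8.71 and 8.37 in control (-0.85, adjusted p = 0.000462). Mir103-1 itself had 0.23, with a 95% interval from -0.16 to 0.62. On the X chromosome, *Clcn5* (-0.71, adjusted p = 0.000397) holds Mir188, which had -0.45 (adjusted p = 0.026), and Mir362, which had 0.05. The call of Mir188 was lost without cKO replicate 1 or 2 or control replicate 2 or 3 (adjusted p from 0.0617 to 0.0914).

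**Figure D3:**
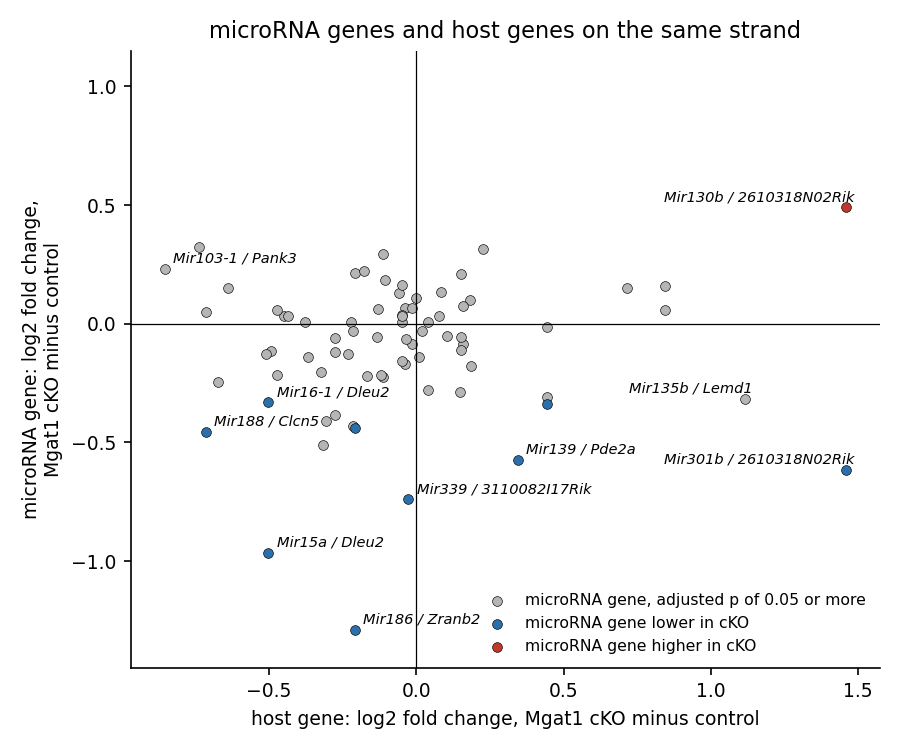
Log2 fold change (Mgat1 cKO minus control) of microRNA genes (vertical axis) against that of the host gene on the same strand (horizontal axis) for 76 pairs. Red and blue points are microRNA genes raised and lowered, grey points did not pass; the points spread without a clear trend (Pearson correlation 0.07), and Mir130b and Mir301b share the host at 1.46.

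The let-7 family, with Mir98, had no call among its 12 measured genes. Let-7 microRNAs mark differentiating cells and are held down by Lin28 proteins in undifferentiated ones, spermatogonia included. Of these genes 11 carry the mature seed GAGGUAG in the sequence table. The log2 fold changes ran from -0.48 to 0.29 with a median of -0.11, and none had groups that did not overlap. Mirlet7a-2, the largest, had 4.47, 4.92 and 4.71 in cKO, against 4.75, 5.08 and 5.73 in control, with a 95% interval from -0.98 to 0.02, which leaves room for a fall of nearly 2-fold. Mirlet7f-1 had -0.32 (adjusted p = 0.0694), Mir98 -0.38 (adjusted p = 0.113) and Mirlet7d -0.30 (adjusted p = 0.131). These calls depended on control replicate 1. Without it the 4 genes passed, with -0.70 for Mirlet7a-2 (adjusted p = 0.0274), -0.60 for Mir98 (adjusted p = 0.00404), -0.47 for Mirlet7d (adjusted p = 0.0127) and -0.41 for Mirlet7f-1 (adjusted p = 0.0379), and Mirlet7f-1 also passed without cKO replicate 2 (adjusted p = 0.0442).

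The miR-34 family is known for its high level in late spermatocytes and round spermatids, and its members Mir34b and Mir34c share a transcript. Mir34b had 6.56, 6.53 and 6.30 in cKO, against 6.77, 6.70 and 6.76 in control, which did not overlap but did not pass the test (-0.28, adjusted p = 0.0584). Mir34c had 4.75, 4.68 and 4.76 in cKO, against 4.47, 4.94 and 4.75 in control (0.01, 95% interval -0.27 to 0.29), and its sign changed with a further quantile normalization (-0.0042). Mir34a had 0.05 (adjusted p = 0.715). The 12 spermatid markers on the same arrays were all raised, by 0.63 to 4.57, and 9 of 10 spermatocyte markers were lowered. The difference between the miR-34 genes and either list was not tested.

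The X-linked microRNA genes, which lie on a chromosome silenced in pachytene spermatocytes, numbered 19. Of these Mir188 was lowered, none was raised, and the median log2 fold change was -0.12. Mir224 had 4.48, 4.63 and 4.14 in cKO, against 4.70, 4.72 and 5.07 in control (-0.41, adjusted p = 0.0629), and passed without cKO replicate 2 (adjusted p = 0.041). The groups of Mir96 and of miR-181 each had 1 raised gene, and 5 of the 6 miR-181 genes had a positive log2 fold change (median 0.16). Of 4 genes of miR-23/27/24, Mir27a had 6.46, 6.53 and 6.13 in cKO, against 7.13, 7.05 and 6.65 in control (-0.57, adjusted p = 0.0181). The call of Mir27a was lost without cKO replicate 3 or control replicate 1 or 2 (adjusted p from 0.0526 to 0.0654). Mir23a (-0.48) and Mir27b (-0.43) did not pass, although Mir23a did without control replicate 1 (adjusted p = 0.0344), and Mir23b had -0.03, a value that turned to 0.02 after the arrays were centred on their medians.

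MicroRNA genes known from other cell types gave the following values beside the cell markers. Among 4 genes of smooth muscle and stromal cells none passed, with log2 fold changes from -0.20 (Mir145) to 0.17 (Mir143), while 7 of 10 markers of stromal and peritubular cells were lowered (list mean 7.63 to 8.06 in cKO and 8.35 to 8.69 in control). The 3 markers of that list that did not pass were the smooth muscle genes *Acta2* (0.12), *Myh11* (-0.06) and *Cnn1* (0.15). Among 6 blood and immune genes, Mir150 of lymphocytes had 5.10, 5.41 and 5.21 in cKO, against 5.65, 5.86 and 5.59 in control (-0.46, adjusted p = 0.0137). Its call was lost without cKO replicate 1 or control replicate 2 (adjusted p from 0.0508 to 0.0527). Mir142, of all blood cells, had -0.38 (adjusted p = 0.0662) and passed without control replicate 1 (adjusted p = 0.0225). The macrophage and immune markers averaged 6.96 to 7.60 in cKO and 7.80 to 8.21 in control, and the part of these cells in the value of Mir150 was not tested.

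Of 7 genes known from striated muscle, the copies of Mir133a moved apart. Mir133a-2 had 4.02, 3.76 and 3.66 in cKO, against 4.65, 4.71 and 4.45 in control (-0.79, adjusted p = 0.0012). Mir133a-1 had 3.48, 3.37 and 3.76 in cKO, against 3.34, 2.94 and 3.05 in control (0.43, adjusted p = 0.0387). The call of Mir133a-1 was lost without cKO replicate 1 or 3 or control replicate 2 or 3 (adjusted p from 0.0729 to 0.127). Among 11 neuronal genes 1 was raised (Mir124a-2, 0.36) and 1 was lowered (Mir124a-3, -0.27). The call of Mir124a-3 was lost without each of the 6 arrays in turn (adjusted p from 0.0503 to 0.114). Of 6 genes of the clusters of embryonic stem cells Mir290 was lowered (-0.51, adjusted p = 0.0245), and of 17 genes of the imprinted Dlk1-Dio3 cluster Mir377 was lowered (-0.34, adjusted p = 0.0282). Both lost the call without 4 of the 6 arrays in turn (adjusted p from 0.05 to 0.0905).

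**Figure D4:**
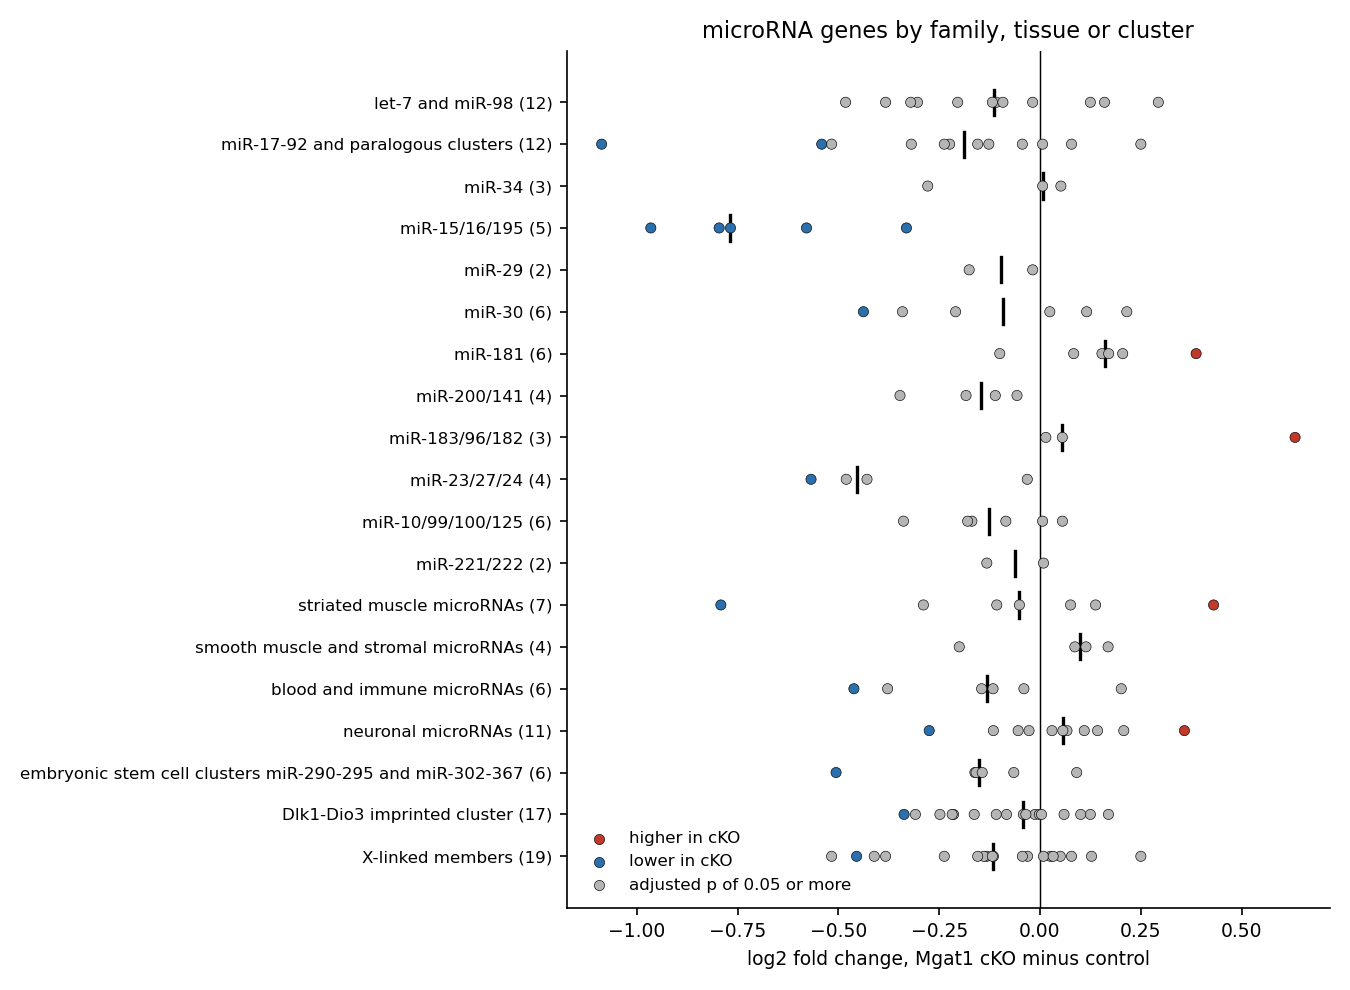
Log2 fold change (Mgat1 cKO minus control, horizontal axis) of microRNA genes grouped by family, tissue or cluster (rows, number of genes in brackets); each point is a gene, red if raised, blue if lowered and grey if it did not pass, and black bars are medians. The row of miR-15, miR-16 and miR-195 has all 5 points lowered (median -0.77), while the 12 let-7 and miR-98 points have no call with all 6 arrays (Mirlet7a-2, Mir98, Mirlet7d and Mirlet7f-1 passed without control replicate 1).

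With probe sets averaged, genes of the microRNA pathway were mostly lower in *Mgat1* cKO germ cells. Of 36 listed genes 34 were measured, and 19 were lowered, 1 was raised and 14 did not pass, with a median log2 fold change of -0.37 (18.4% of all genes were lowered). The pathway genes were brighter than most, with a median signal of 8.62 against 6.81 for all genes. No share among genes of like signal or number of probe sets is given. In nuclear cropping 6 of 7 genes were lowered. Drosha had 8.62, 8.58 and 8.60 in cKO, against 9.17, 9.16 and 8.99 in control (-0.50, adjusted p = 0.00306), and its RNA-binding partner Dgcr8 had 8.02, 8.12 and 8.20 in cKO, against 8.67, 8.70 and 8.59 in control (-0.54, adjusted p = 0.00228). The processing factor Khsrp (-0.52) and the RNA editor Adar (-0.45) were lowered as well, and the call of Adar was lost without cKO replicate 1 (adjusted p = 0.054).

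Dicer1 had 7.39, 7.10 and 7.15 in cKO, against 7.77, 7.91 and 7.65 in control (-0.56, adjusted p = 0.00546), and its partner Prkra fell by 0.56 on the log2 scale. The export receptor Xpo5 had -0.15 (adjusted p = 0.244) and the other Dicer1 partner Tarbp2 had 0.10 (adjusted p = 0.57), with -0.06 on its brightest probe set. Among 10 genes of Argonaute proteins and silencing 6 were lowered. The slicing Argonaute Ago2, named Eif2c2 on the array, had 8.61, 8.64 and 8.71 in cKO, against 9.30, 9.45 and 9.23 in control (-0.67, adjusted p = 0.000789). Ago4 (Eif2c4) had -0.56, the import receptor Ipo8 had -0.76 and Tnrc6a, a scaffold that links Argonaute to deadenylases, had -0.66.

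In tailing and decay 5 of 12 genes were lowered and 1 was raised. Dis3l2, the exonuclease that destroys uridylated let-7 precursors, had 9.48, 9.45 and 9.41 in cKO, against 8.74, 8.70 and 8.77 in control (0.71, adjusted p = 0.000274). It was the only raised gene of the pathway. Lin28b, which blocks let-7 processing, had 6.07, 5.91 and 6.15 in cKO, against 6.83, 6.93 and 6.61 in control (-0.74, adjusted p = 0.00118), but its brightest probe set had 0.04 (adjusted p = 0.862). Tsn (-0.53) and the exonuclease Xrn1 (-0.46) were lowered. When each gene was represented by its brightest probe set, 7 of the 34 pathway genes were lowered, Drosha, Dicer1 and Eif2c2 among them. The calls of Dgcr8, Khsrp, Adar, Prkra, Tnrc6a, Eif2c4 and Xrn1 were lost. The count of 19 lowered genes thus depended on averaging probe sets, and with their median it was 14. The share of all genes lowered on the brightest probe set is not given, so the count of 7 has no background. The spermatocyte markers, 9 of 10 lowered by a median of 0.60 on the log2 scale, moved in the same direction, and their part in these values was not tested.

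**Figure D5:**
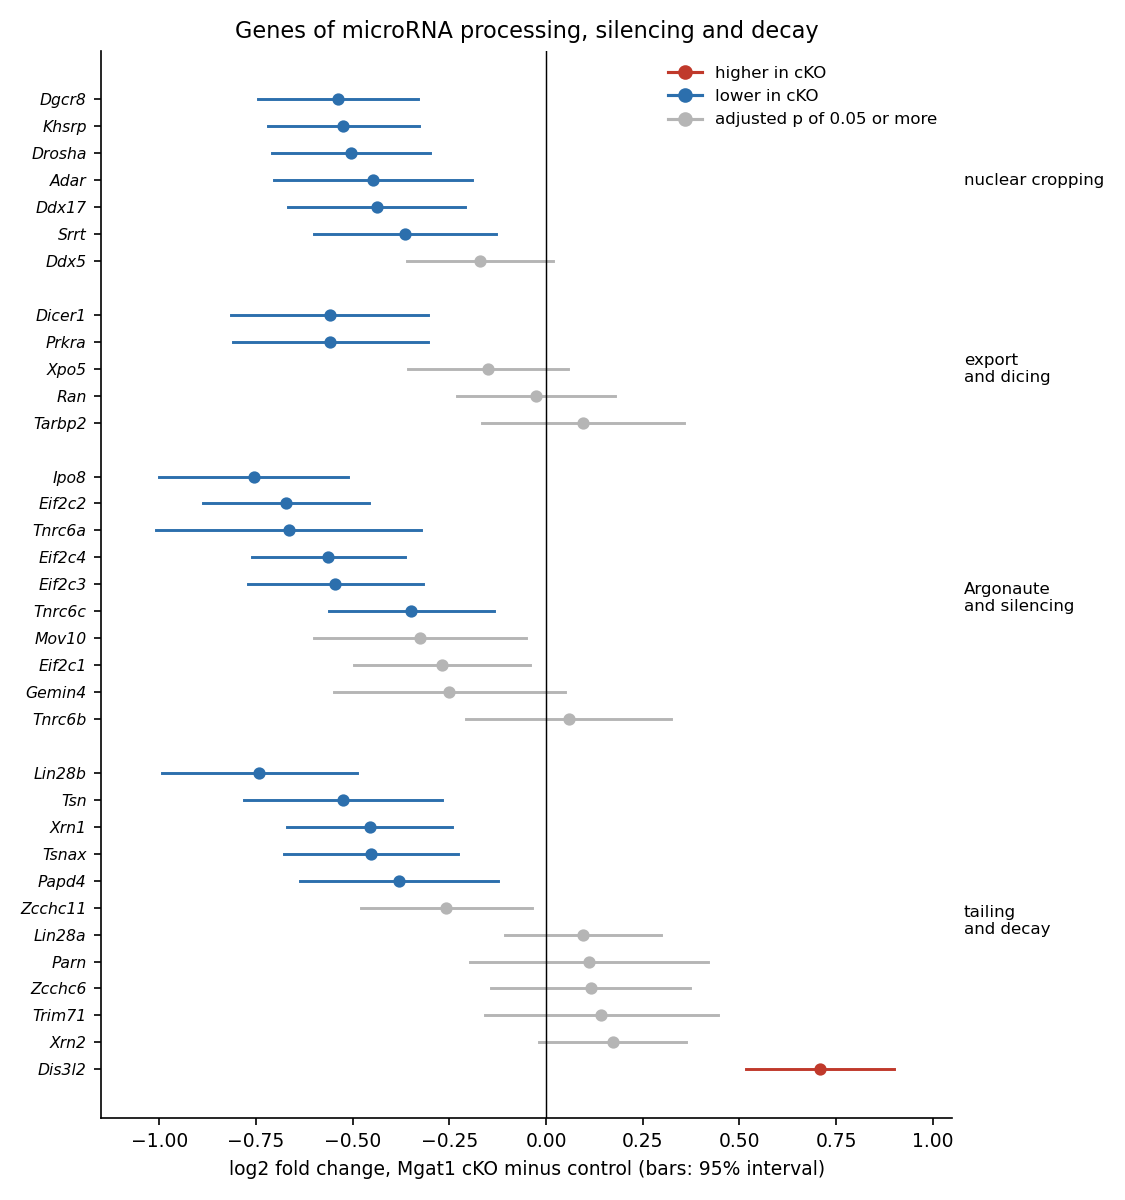
Log2 fold change (Mgat1 cKO minus control, horizontal axis) with its 95% interval for 34 genes of microRNA processing, silencing and decay, grouped by step and named by array symbol. Of the genes 19 (blue) lie below 0 and passed the test, 1 (red, Dis3l2 at 0.71) lies above, and 14 (grey) did not pass.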

How the data were processed

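RNA of germ cells from 6 individual mice was measured on 1 Affymetrix mouse gene array each. Per the labels, the authors used RMA in Affymetrix Expression Console, and the deposited values are log2 signals per probe set. Tool versions and the genome build: not given in the sources used here. The 269751 probe sets were named through a platform table, and 233753 had 1 symbol. Single-symbol probe sets of a gene were averaged (23152 genes, no filter on signal). A further 40 probe sets that name a member together with another gene were left out. Of the 218 members 207 matched a RefSeq symbol and 10 a synonym. Hosts, neighbours and sequences came from RefSeq tables (GRCm38.p6).

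Groups came from the sample labels. The cKO and control arrays entered a fit in limma 3.58.1 under R 4.3.3 (lmFit, eBayes, 2-sided tests, no covariates), with Benjamini-Hochberg adjustment over all genes and a threshold of 0.05. Having 3 arrays per group limits precision. Described genes were the 10 largest called rises and falls whose groups did not overlap, up to 4 genes per list with the largest change, Drosha, Dgcr8, Dicer1 and Ago2, and hosts. Mir16-1, Mir301b, Mir139, Mir20a, Mir19b-1, *Smc4*, *Pde2a*, *Pank3*, *Clcn5*, *Iars2*, Mir103-1 and Mir362 were chosen after their values were seen. The members and lists were chosen with earlier results of these data known. The steps were tested on simulated data, and figures were drawn with matplotlib 3.10.9. Also tried were leaving out each array, a replicate block, centring, quantile normalization, removal of dim probe sets, the brightest or median probe set, probe sets tested singly, a variance trend, array weights, the one-way test of the methods and a 1.5-fold threshold.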

Additional observations from a re-analysis of the deposited data

How the results depend on the processing

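The 8 raised and 25 lowered microRNA genes became 3 and 9 among the 60 left when the dimmest 25% of probe sets were removed, and 1 and 3 among the 16 left at 50%. They became 3 and 16 with the brightest probe set, 3 raised with the median of probe sets, 3 and 14 with the adjusted one-way test of the methods, 1 and 11 at 1.5-fold, and 1 and 9 with the 227 probe sets tested singly. Centring the arrays gave 10 and 20. Leaving out 1 array gave 3 to 9 raised and 17 to 34 lowered. The median log2 fold change of -0.07 became -0.0204 after centring, -0.11 and -0.22 with the 2 filters, and -0.0862 to -0.0525 without 1 array. Lowered genes of miR-15, miR-16 and miR-195 numbered 2 of 3 left with the dimmest 25% removed (at 50% none was left), 3 at 1.5-fold and 3 with the adjusted one-way test. This family count was added after the data were seen. Of 34 pathway genes 7 were lowered on the brightest probe set and 4 at 1.5-fold, and 2 were raised by the one-way test with or without adjustment. Before centring, array medians were 7.306 to 7.322 in cKO and 7.355 to 7.378 in control. Centring removes this offset, so it moved the log2 fold change of every gene up by the same amount. The cause of the other shifts was not tested, beyond the smaller number of genes that the filters leave.

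The labels give both groups the numbers 1 to 3. Deviations of same-numbered arrays correlated at 0.03, 0.10 and -0.06, and those of differently numbered arrays at -0.133 to 0.107. With 3 arrays per group these values cannot show whether same-numbered arrays shared a batch. With a replicate block 7 microRNA genes were raised and 25 lowered, and 19 pathway genes were lowered. Mir106a (adjusted p = 0.00767), Mir23a (0.0458) and Mir142 (0.0359) gained the call under the block.

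Of 1619 alternatives for 103 described genes, 1434 kept direction and call, 129 lost the call, 22 gained it and 34 changed sign. Among the called genes of these 103 only Lin28b changed sign (0.0436 on the brightest probe set). *Pde2a*, *Pank3*, *Clcn5*, *Iars2*, Mir103-1 and Mir362 were not among the 103, so how their values depend on the processing was not tested. Among the other sign changes, without 1 array Mir34c ranged from -0.12 to 0.12, Mir29a from -0.0697 to 0.0466, Mir181d from -0.11 to 0.36, Mir200a from -0.13 to 0.0119, Mir183 from -0.0506 to 0.0699, Mir23b from -0.0838 to 0.0131, Mir10b from -0.16 to 0.0241, Mir222 from -0.15 to 0.14, Mir199b from -0.023 to 0.26, Mir199a-1 from -0.0527 to 0.19, Mir20a from -0.0786 to 0.10, Mir19b-1 from -0.26 to 0.0179 and *3110082I17Rik* from -0.0679 to 0.0048. After centring Mir29a had 0.0318, Mir23b 0.0184 and *3110082I17Rik* 0.0229. After quantile normalization Mir34c had -0.0042, Mir29a 0.0025, Mir20a -0.0093 and *3110082I17Rik* 0.0201. With array weights Mir29a had 0.0038, with the median of probe sets *Zranb2* had 0.0053, and on the brightest probe set Tarbp2 had -0.062 and *3110082I17Rik* 0.26. Weak signal and 3 arrays per group limit what can be called at these loci.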

Other observations

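Probe sets that name a microRNA gene together with another gene were kept out of the gene values, and 40 of them name a gene of the same numbering. Tested singly among all probe sets, 1 of these passed. No share of all probe sets is given beside this count, so it does not show whether the share is high or low. The probe set of Mir21 and *Vmp1*, an autophagy gene whose transcript reaches into Mir21, had 4.62, 4.57 and 4.48 in *Mgat1* cKO, against 5.22, 5.63 and 5.13 in control germ cells (log2 fold change -0.77, limma adjusted p = 0.0443). Mir21 is known to help maintain spermatogonial stem cells. On the gene's own probe sets *Vmp1* had 7.05, 7.39 and 6.96 in cKO, against 7.64, 7.69 and 7.67 in control (-0.54, adjusted p = 0.00862). The probe set shared by Mir92-1 and *Mir17hg*, at the end of the miR-17-92 cluster, had 6.12, 6.19 and 6.02 in cKO, against 6.72, 6.36 and 6.49 in control (-0.42, adjusted p = 0.139). The probe set of the striated muscle genes Mir1b and Mir1a-2 had 5.58, 5.79 and 5.31 in cKO, against 6.27, 6.53 and 6.09 in control (-0.74, adjusted p = 0.0644).

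Genes outside the numbering that belong to families described above gave further values. Mir449a and Mir449c, which share the seed of the miR-34 family and are expressed in meiotic and later male germ cells, were lowered, with log2 fold changes of -0.36 (adjusted p = 0.0151) and -0.96 (adjusted p = 0.00126), while Mir449b had -0.11 (adjusted p = 0.42). Mir497, the neighbour of Mir195, had -0.30 (adjusted p = 0.118). Neither these genes nor *Vmp1* were put through the alternatives above, so whether their calls depend on a single array was not tested. Of all 282 other microRNA genes on the array, 11 were raised and 35 lowered.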
